A study of Mus musculus with 2 samples.

Results

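The matricellular protein genes described here are Postn, Tnc, Thbs1, Thbs2, Thbs3, Thbs4, Ccn1, Ccn2, Ccn3, and Ccn5, chosen by symbol as 10 of the 32288 features in the deposited matrices. All 10 were detected, and all 10 passed the filter on low counts in both models described below. Periosteal cells of mouse femurs and tibias were profiled by scRNA-Seq, and the labels hold 2 replicate libraries with no second group. The labels give WT C57BL6 mice, 4 week old, and cells were freed with collagenase and sorted by FACS on CD45, CD31, and Ter119, with no treatment or other genotype. The number of mice in each library is not given in the sources used here, so p-values measure only the spread between these 2 libraries. That spread may be technical or lie between the animals used. The reporter EGFP had 0 UMIs in the stromal cells of replicate 1 and 6833 in those of replicate 2, which the labels do not explain.

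Matricellular proteins are secreted into the extracellular matrix but do little to hold it together. They bind collagens, growth factors, proteases, and cell surface integrins, and so change how cells attach, migrate, and respond to signals. Many are made in development, under mechanical load, and after injury, and bone, tendon, and cartilage are among the tissues where they are best known. Periostin takes its name from the periosteum, the fibrous sheet around bone that holds skeletal stem and progenitor cells.

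Values are unique molecular identifiers (UMIs), each of which marks a captured transcript. UMIs were summed over the cells of a group in a library, divided by all UMIs of those cells, and multiplied by 1000000 (CPM), with exact Poisson 95% intervals that cover counting error only. Replicate 1 held 9932 barcodes and 100808649 UMIs, and 6276 cells were kept, of which 448 (7.14%) were stromal. Replicate 2 held 3659 barcodes and 33306452 UMIs, and 2893 cells were kept, of which 1124 (38.9%) were stromal. Only 7 of the kept barcodes occurred in both libraries. The other kept cells fell into hematopoietic clusters, despite the sort.

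Clustering of the 1572 stromal cells without the 10 genes gave 15 clusters. Named classes came from marker genes. These were periosteal skeletal stem cell (P-SSC)-like cells (20 in replicate 1 and 285 in replicate 2, with 12 or 13 of 14 markers found in their clusters), osteoblast-like cells (93 and 168, with 8 of 9), chondrocyte-like cells (27 and 121, with 12 of 12), Lepr+ stromal-like cells (63 and 9, with 10 of 10), tenocyte-like cells (2 and 109, with 6 of 8), smooth muscle-like cells (4 and 19, with 9 of 10), and skeletal muscle-like cells (71 and 63, with 10 of 10). The 14 P-SSC-like markers were Ly6a, Cd34, Clec3b, Pdgfra, Pi16, Dpp4, Cd248, Dpt, Mfap5, Mfap4, Gsn, Col3a1, Thy1, and Ly6c1. Prrx1 (Prx1), by which the study named its mouse P-SSC clusters, was not among them. The name therefore rests on these markers only, and stem cell function was not tested. Clusters without a name are called by their leading gene. They were the Mmp9 cluster (39 and 79 cells), which was led by proliferation genes such as Birc5 and Mki67, the Tcim cluster (17 and 47), the Col10a1 cluster (68 and 74), the Gm26917 cluster (34 and 47), the Msmp cluster (0 and 75), and the Igkc cluster (10 and 28), which was led by B cell genes and is left out below.

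Some sums carried RNA of other cells. Neutrophil marker genes summed to 17919.6 CPM in the P-SSC-like cells of replicate 1, against 37.2 CPM in replicate 2, and to 5027 CPM in the osteoblast-like cells of replicate 1, against 44.7 CPM in replicate 2. None of the 10 markers was at 0 in either sum of replicate 1. Erythroid marker genes summed to 22465 CPM in Lepr+ stromal-like cells, 23559 CPM in the Mmp9 cluster, and 14729.7 CPM in the Col10a1 cluster of replicate 1. In P-SSC-like cells they summed to 1121 CPM in replicate 1 and 3992 CPM in replicate 2. The Gm26917 cluster of replicate 1 had 3999 CPM of erythroid and 1831 CPM of skeletal muscle marker genes. Endothelial marker genes summed to 900 and 835 CPM in that cluster. The part of these transcripts in the results was not tested. The reporter EGFP, which WT mice do not carry, had 6833 UMIs in the stromal cells of replicate 2, and the calls that changed without the cells that carried a reporter UMI are given after the counts of calls.

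Promoter sequence was held by RefSeq (GRCm38.p6) for 6 of the 10 genes, in 8 promoters, and 4 are shown because they belong to the genes that marked different groups below. Each run is the 250 bases before a transcript start, 5′ to 3′ on the strand of the gene. Capitals mark matches on either strand to 1 of 3 motifs. The first is TATANA, a form of the TATA box. The second is GGAATG, the core that TEAD factors bind. The third is ACGTCA, part of the cAMP response element. Matches that overlap are merged. No promoter was listed for Thbs1, Ccn2, Ccn3, or Ccn5.
Postn (chr3:54360857-54361106, + strand): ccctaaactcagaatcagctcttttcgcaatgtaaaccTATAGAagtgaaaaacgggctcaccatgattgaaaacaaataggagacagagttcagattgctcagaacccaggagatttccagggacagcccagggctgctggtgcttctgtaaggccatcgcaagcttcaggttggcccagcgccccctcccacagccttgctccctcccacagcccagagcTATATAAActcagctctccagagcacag
Tnc (chr4:64047016-64047265, - strand): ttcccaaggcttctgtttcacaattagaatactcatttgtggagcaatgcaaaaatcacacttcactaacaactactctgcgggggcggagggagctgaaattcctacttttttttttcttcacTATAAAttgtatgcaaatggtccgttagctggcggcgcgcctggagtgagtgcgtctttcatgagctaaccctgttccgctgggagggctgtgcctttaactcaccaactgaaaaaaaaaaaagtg
Thbs4 (chr13:92794819-92795068, - strand): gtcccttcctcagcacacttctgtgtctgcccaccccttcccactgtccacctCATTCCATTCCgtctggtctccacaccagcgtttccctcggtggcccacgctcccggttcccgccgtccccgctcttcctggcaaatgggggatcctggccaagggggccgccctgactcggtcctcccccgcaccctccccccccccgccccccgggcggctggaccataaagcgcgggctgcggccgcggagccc
Ccn1 (chr3:145649986-145650235, - strand): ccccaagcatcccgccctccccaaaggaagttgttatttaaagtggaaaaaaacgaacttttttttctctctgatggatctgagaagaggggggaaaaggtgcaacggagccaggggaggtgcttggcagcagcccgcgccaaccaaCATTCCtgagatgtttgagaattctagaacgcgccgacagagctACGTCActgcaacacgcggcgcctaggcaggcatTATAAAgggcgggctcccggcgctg

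Positions are counted back from the transcript start to the first base of a match. The Postn promoter shown held overlapping TATANA matches at -28 and -26 and another at -212. Another Postn promoter (chr3:54359017-54359266, + strand) is not shown and held no match. The Tnc promoter shown held TATANA at -126. A window of Tnc that starts further into the gene is not shown, and in it the same match stands at -205 beside another at -29. The Ccn1 promoter held TATANA at -25, ACGTCA at -59, and GGAATG at -103, read on the other strand. The Thbs4 promoter held GGAATG at -192 and -197, likewise on the other strand, and no TATANA. Of 32851 promoters of this length, 22.6% held TATANA, 12.6% GGAATG, and 6.47% ACGTCA, so these matches describe the sequences and identify no binding. Of the 8 promoters of the members, which include overlapping windows of Tnc, 5 held TATANA, 2 GGAATG, and 1 ACGTCA. The letters TGANTCA, the core of the AP-1 site, were in 6.75% of all promoters and in 0 of the 8 promoters of the members.

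The members divided into several patterns. Postn, Ccn3, and Thbs4 were high in P-SSC-like and tenocyte-like cells, and Postn was as high in smooth muscle-like cells and high in the Mmp9 cluster. Tnc was high in Lepr+ stromal-like cells and the Mmp9 cluster. Thbs1, Thbs3, and Ccn1 were high in chondrocyte-like cells, and Ccn2 was highest in the Tcim cluster. Thbs3 was also high in P-SSC-like cells, and Thbs1 in the Msmp cluster of replicate 2. In skeletal muscle-like cells the highest level of any member was 11.4 CPM, for Ccn2 in replicate 2.

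**Figure D1:**
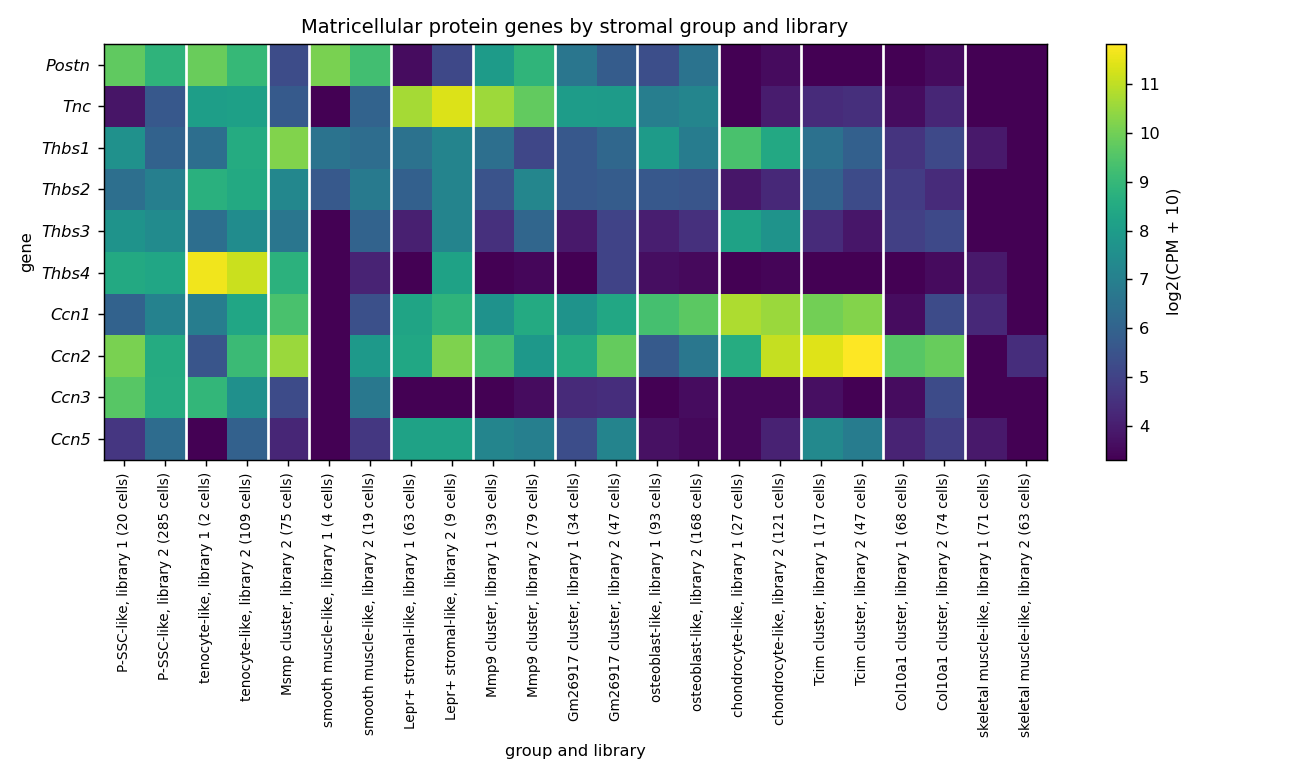
Level of each of the 10 genes as log2(CPM + 10), in colour, for each stromal group and library, with the number of cells of each column below it. Thbs4 is brightest in tenocyte-like cells (3131 and 2251 CPM), Tnc in Lepr+ stromal-like cells (1603 and 2639 CPM), and Ccn2 in the Tcim cluster (2688 and 3585 CPM).

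Differences were tested in 2 models with edgeR's quasi-likelihood test, on the UMI sums per library and group, with Benjamini-Hochberg adjustment over all genes tested and a threshold of 0.05. Each contrast set a group against the mean of the fitted log2 levels of the other groups. The model of named classes held P-SSC-like, osteoblast-like, and chondrocyte-like cells, with skeletal muscle-like cells in the fit only, and tested 10672 genes. The wide model, chosen after the clusters had been seen, added Lepr+ stromal-like cells and the Mmp9, Tcim, Col10a1, and Gm26917 clusters and tested 9421 genes. Where a gene was near 0 in a group, its fitted log2 fold change depends on the count that the model adds and is no bound, so the levels are given first. Groups near 0 also lower the mean of the others, so a group called higher can hold less than some of them. For Tnc, the Gm26917 cluster was called higher at 246 and 244 CPM, below the 1603 and 2639 CPM of Lepr+ stromal-like cells. For Ccn3, the Col10a1 cluster was called higher at 2.04 and 28.2 CPM, below the 763.7 and 371 CPM of P-SSC-like cells.

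In P-SSC-like cells, 6 of the 10 members were higher (Postn, Thbs2, Thbs3, Thbs4, Ccn3, and Ccn5), where 15% of all genes were, and 2 were lower (Thbs1 and Ccn1), where 8.08% were. In chondrocyte-like cells, 4 were higher (Thbs1, Thbs3, Ccn1, and Ccn2), where 8.27% of all genes were, and 5 were lower (Postn, Tnc, Thbs2, Thbs4, and Ccn3), where 8.97% were. In osteoblast-like cells, 1 was higher (Tnc), where 6.04% of all genes were, and 4 were lower (Thbs3, Thbs4, Ccn2, and Ccn3), where 5.58% were. The median log2 fold change of the members was 1.75, -1.87, and -1.32 in these contrasts, and that of all genes was 0.02, -0.03, and 0.02.

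In the wide model, 3 members were higher in Lepr+ stromal-like cells (Tnc, Thbs4, and Ccn5), where 8.07% of all genes were, and 0 were lower, where 3.81% were. In the Mmp9 cluster, 3 were higher (Postn, Tnc, and Ccn5), where 5.53% were, and 0 were lower, where 0.414% were. In the Gm26917 cluster, 2 were higher (Postn and Tnc), where 8.34% were, and 0 were lower, where 2.19% were. In the Tcim cluster, 3 were higher (Ccn1, Ccn2, and Ccn5), where 10.5% were, and 3 were lower (Postn, Tnc, and Thbs3), where 5.63% were. In the Col10a1 cluster, 2 were higher (Ccn2 and Ccn3), where 14.6% were, and 2 were lower (Ccn1 and Tnc), where 11.2% were. The median of all genes was -0.32 in the contrast of the Col10a1 cluster. At an unadjusted p under 0.05, 1 member (Ccn3) was lower in Lepr+ stromal-like cells, 0 in the Mmp9 cluster, and 1 (Thbs1) in the Gm26917 cluster by edgeR, and DESeq2 called 0 lower in any of them at an adjusted p under 0.05.

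Without the cells that carried a reporter UMI, several calls changed. This setting left 16 and 168 P-SSC-like, 39 and 58 osteoblast-like, and 21 and 45 chondrocyte-like cells. It left 12 and 11 cells of the Tcim cluster, 61 and 21 of the Col10a1 cluster, and 24 and 31 of the Gm26917 cluster. The part of these smaller sums in the changes was not tested. In the model of named classes, Ccn3 in chondrocyte-like cells (-2.90, adjusted p = 0.968) and Thbs4 in osteoblast-like cells (-3.08, adjusted p = 0.987) no longer passed, and Postn passed as higher in osteoblast-like cells (2.28, adjusted p = 0.0292). Of the calls of the wide model, Tnc (-2.21, adjusted p = 0.104) and Ccn3 (0.24, adjusted p = 0.588) in the Col10a1 cluster, Postn (3.17, adjusted p = 0.0738) and Tnc (0.97, adjusted p = 0.344) in the Gm26917 cluster, and Postn in the Tcim cluster (-5.85, adjusted p = 1.00) no longer passed.

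**Figure D2:**
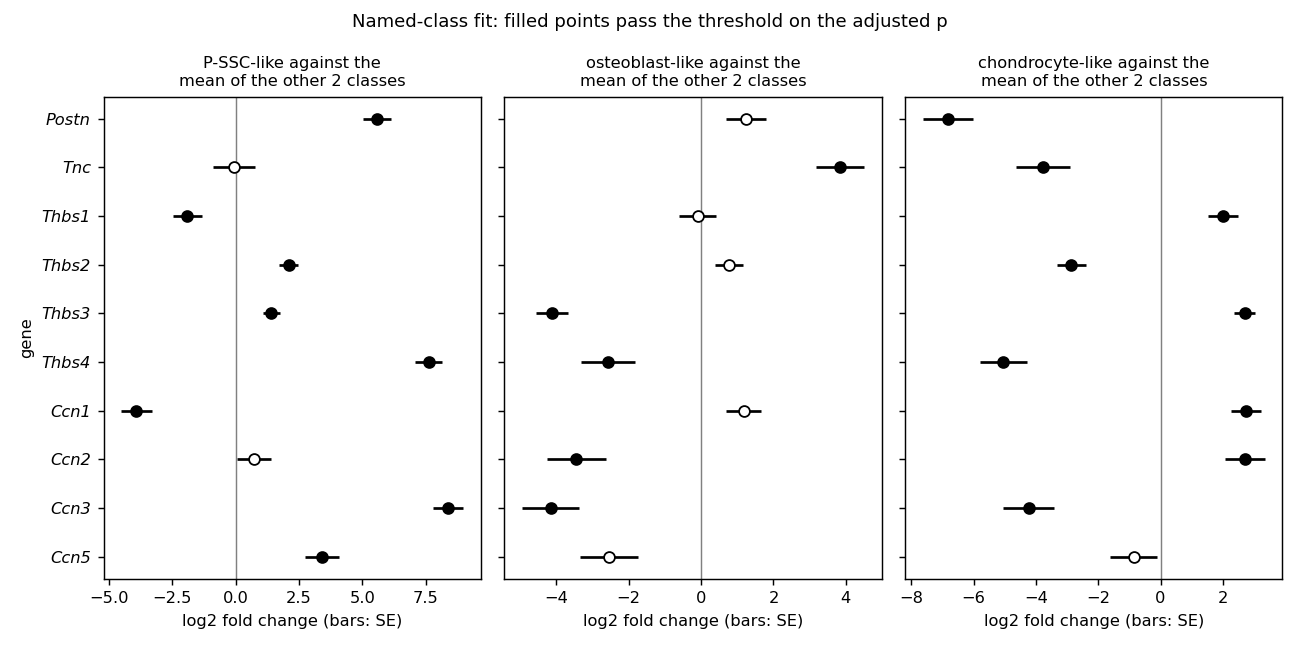
Log2 fold change of each gene in the model of named classes, 1 panel per class against the mean of the other 2, with bars of 1 SE and filled points for an adjusted p under 0.05. Postn, Thbs4, and Ccn3 lie at 5.59, 7.62, and 8.40 in P-SSC-like cells and below 0 in chondrocyte-like cells.

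Postn (ENSMUSG00000027750, chr3:54361109-54391037, + strand, with this and the other coordinates from GENCODE M21 on GRCm38) encodes periostin, a secreted protein that binds collagen and integrins and is abundant in periosteum, tendon, and the periodontal ligament. P-SSC-like cells had 839.7 CPM (95% interval 733-958, from 221 UMIs) in replicate 1 and 449 CPM (424-475, from 1218 UMIs) in replicate 2. The Mmp9 cluster had 241 and 465 CPM. Osteoblast-like cells had 31.1 and 84.6 CPM, and chondrocyte-like cells had 0 UMIs, which allows up to 3.30 CPM, and 1.93 CPM. Both P-SSC-like sums therefore lay above both osteoblast-like sums, and those of P-SSC-like cells and the Mmp9 cluster overlapped.

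Postn was higher in P-SSC-like cells by 5.59 on the log2 scale (SE 0.56, adjusted p = 0.000109, edgeR), and this call held in all 23 alternatives. It was higher than in osteoblast-like cells, the next class, by 2.89 (SE 0.62, adjusted p = 0.0096), and osteoblast-like cells exceeded chondrocyte-like cells by 5.39 (SE 0.81, adjusted p = 0.00172). The Mmp9 cluster was higher by 5.36 in the wide model (SE 0.49, adjusted p = 1.31e-06), also in all 29 alternatives. P-SSC-like cells and the Mmp9 cluster, whose sums overlapped, differed by 0.65 (SE 0.69, adjusted p = 0.714). The Mmp9 cluster exceeded the Gm26917 cluster by 2.75 (SE 0.77, adjusted p = 0.037).

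Postn was also high in groups with too few cells for a test. Tenocyte-like cells had 921 CPM (25 UMIs in 1 of 2 cells) and 507 CPM (452 UMIs), and smooth muscle-like cells had 1095 CPM (26 UMIs) and 592 CPM (75 UMIs). In the Gm26917 cluster, which was higher by 2.22 (SE 0.62, adjusted p = 0.0263), the 18 UMIs of replicate 1 came from 1 of 34 cells, and the call was lost without that sum (1.68, adjusted p = 0.351), without replicate 1 of the Lepr+ stromal-like cells (1.89, adjusted p = 0.0507), or without replicate 2 of the Tcim cluster (2.18, adjusted p = 0.0548). The Tcim cluster had 0 UMIs in both libraries, with floors of 7.80 and 2.65 CPM, and its fitted value of -7.60 (SE 1.42, adjusted p = 0.0016) is no bound. The lower call there did not pass in 8 of 33 alternatives. That call was lost without the Col10a1 cluster of replicate 2, the chondrocyte-like cells of replicate 2, or the Tcim cluster of replicate 2, at -7.10, -6.89, and -7.54 with an adjusted p of 1.00, 1.00, and 0.0628.

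Tnc (ENSMUSG00000028364, chr4:63959785-64047015, - strand) encodes tenascin-C, a large glycoprotein of tendon, bone surfaces, and the stroma that surrounds blood stem cells. Lepr+ stromal-like cells, the perivascular cells that supply Cxcl12 and stem cell factor in bone marrow, had 1603 CPM (95% interval 1488-1724, from 721 UMIs) and 2639 CPM (2150-3207, from 101 UMIs). The Mmp9 cluster had 1496 CPM (596 UMIs) and 873 CPM (766 UMIs). The Gm26917 cluster had 246 and 244 CPM, osteoblast-like cells had 115 and 134 CPM, P-SSC-like cells had 3.80 CPM (1 UMI) and 40.6 CPM, and the level was 0 and 5.79 CPM in chondrocyte-like cells. The 4 sums of Lepr+ stromal-like cells and the Mmp9 cluster lay above all other sums.

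In the wide model, Tnc was higher in Lepr+ stromal-like cells by 4.90 (SE 0.42, adjusted p = 6.62e-07) and in the Mmp9 cluster by 4.62 (SE 0.41, adjusted p = 1.74e-06). Both calls held in all alternatives that held the group, 33 and 29. The difference between them was 0.24 (SE 0.70, adjusted p = 0.935). The Gm26917 cluster was higher by 1.68 (SE 0.49, adjusted p = 0.037), a call lost without either of its sums (1.67, adjusted p = 0.235, and 1.64, adjusted p = 0.16) and without replicate 1 of the Col10a1 cluster (1.59, adjusted p = 0.0529) or of the Tcim cluster (1.63, adjusted p = 0.0505). The Mmp9 cluster exceeded the Gm26917 cluster by 2.57 (SE 0.74, adjusted p = 0.046), the Gm26917 cluster and osteoblast-like cells differed by 0.27 (SE 0.71, adjusted p = 0.855), and osteoblast-like cells exceeded P-SSC-like cells by 2.65 (SE 0.75, adjusted p = 0.0236). Tnc detection was broad in these groups, in 90.5% and 88.9% of Lepr+ stromal-like cells and in 87.2% and 65.8% of the Mmp9 cluster. By comparison, 0.449% and 0.150% of B cell-like cells had a Tnc UMI, with a median of 3849.5 and 4004 UMIs per cell against 6971 and 3061 in Lepr+ stromal-like cells and 8653 and 4449 in the Mmp9 cluster.

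Among the named classes, Tnc was higher in osteoblast-like cells by 3.84 (SE 0.67, adjusted p = 0.00541) and lower in chondrocyte-like cells (-3.78, SE 0.87, adjusted p = 0.0157). The osteoblast-like call ended when the groups of the wide model were added (1.37, adjusted p = 0.0831), with DESeq2 (4.14, adjusted p = 0.153), with coarser clusters at a resolution of 0.4 (1.76, adjusted p = 0.434), and when the members were allowed among the variable genes (1.43, adjusted p = 0.197). Lepr+ stromal-like cells had joined the contrast at resolution 0.4 (84 and 39 cells) and with the members included (85 and 38). The chondrocyte-like call was lost without the P-SSC-like cells of replicate 2 (-2.20, adjusted p = 0.309) and without the chondrocyte-like cells of replicate 1 (-3.16, adjusted p = 0.0628). It was also lost with DESeq2 (-4.05, adjusted p = 0.146), at a resolution of 0.4 (-5.54, adjusted p = 0.0521), and with skeletal muscle-like cells in the contrast (-0.60, adjusted p = 0.986). Tnc in P-SSC-like cells differed from the mean of the others by -0.06 (SE 0.83, adjusted p = 0.975), a value whose sign changed in 9 of 23 alternatives. Tnc was called lower in the Tcim cluster (-3.32, SE 0.74, adjusted p = 0.00626) and the Col10a1 cluster (-3.11, SE 0.81, adjusted p = 0.0102). Each of these calls did not pass in 7 of 33 alternatives, among them the fits without either sum of the same cluster. Tenocyte-like cells had 258 CPM (7 UMIs in 2 cells) and 271 CPM (242 UMIs).

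**Figure D3:**
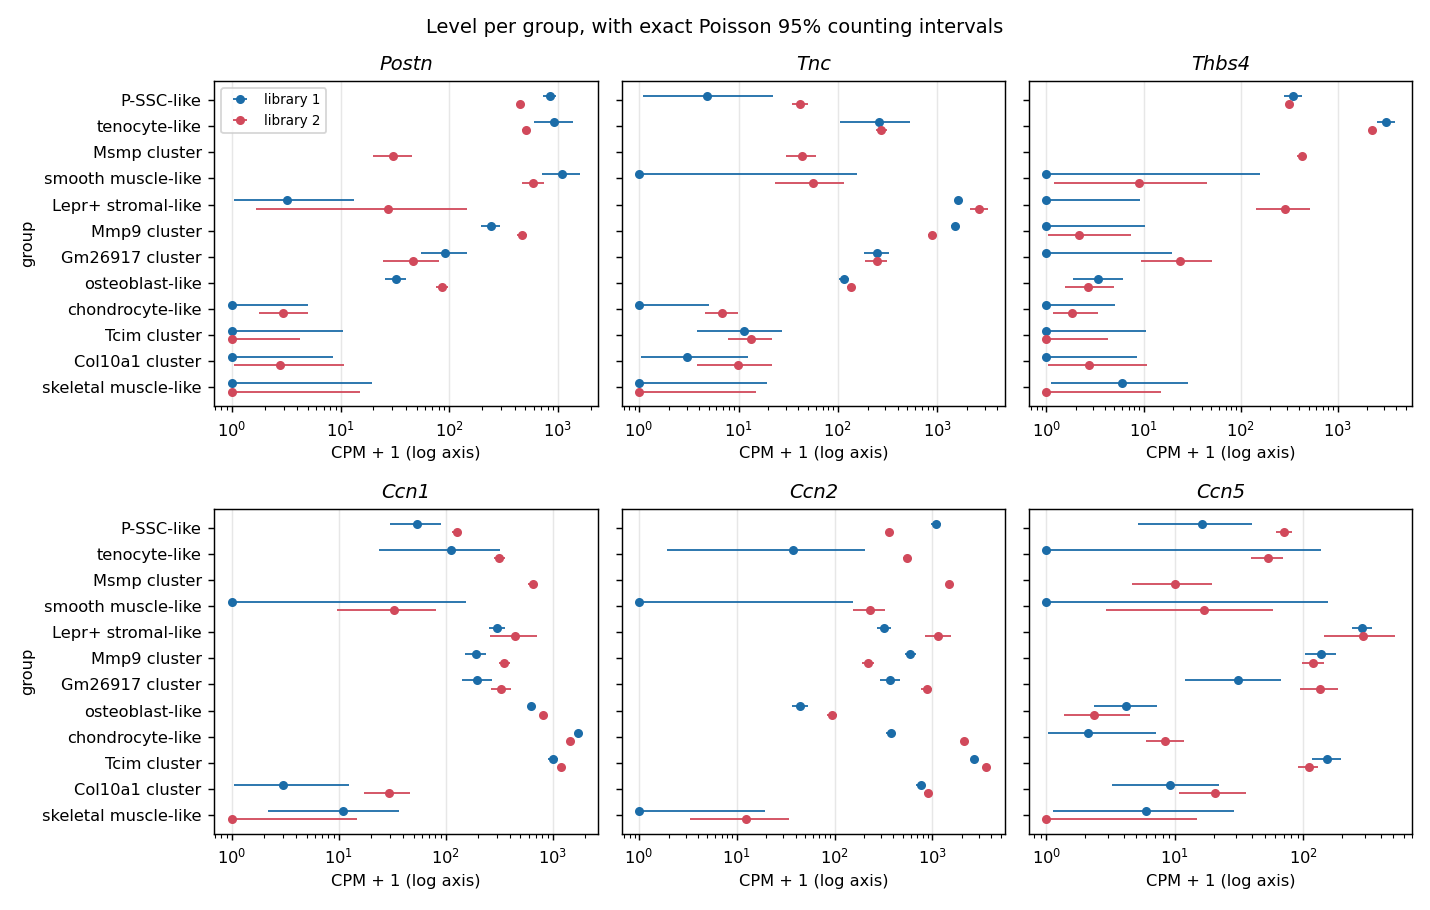
Level of 6 genes in CPM + 1, on a log axis, for each stromal group, with library 1 in blue, library 2 in red, and bars for the exact Poisson 95% interval. Tnc peaks in Lepr+ stromal-like cells and the Mmp9 cluster, Thbs4 in tenocyte-like cells, and Ccn2 in the Tcim cluster, and Ccn5 is highest in Lepr+ stromal-like cells (287 CPM in both libraries).

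The thrombospondins are secreted glycoproteins that bind calcium, matrix, and cell surface receptors. Thbs1 and Thbs2 form trimers and restrain blood vessel growth, and Thbs1 can release TGF-β from its latent form. Thbs3, Thbs4, and Comp form pentamers and belong to cartilage, tendon, and muscle matrix.

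Thbs1 (ENSMUSG00000040152, chr2:118111876-118127133, + strand) had 651 CPM (592 UMIs) and 339.7 CPM (1233 UMIs) in chondrocyte-like cells. Osteoblast-like cells had 242 and 109 CPM, and P-SSC-like cells had 186 and 53.1 CPM. The order was the same in each library, with both chondrocyte-like sums above the others and the osteoblast-like and P-SSC-like sums overlapping. Chondrocyte-like cells were higher by 2.00 (SE 0.49, adjusted p = 0.0148), and the P-SSC-like contrast was negative (-1.91, SE 0.57, adjusted p = 0.0312). Neighbours in the order did not pass the threshold, at 1.39 (SE 0.59, adjusted p = 0.174) for chondrocyte-like over osteoblast-like cells and 1.21 (SE 0.61, adjusted p = 0.214) for osteoblast-like over P-SSC-like cells.

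Both Thbs1 calls were lost at resolutions of 0.4 and 1.2, where tenocyte-like cells joined the contrast. The P-SSC-like call for Thbs1 was weak. It was lost without the P-SSC-like cells of replicate 2 (-1.33, adjusted p = 0.232), the chondrocyte-like cells of replicate 1 (-1.76, adjusted p = 0.0543), or the osteoblast-like cells of replicate 1 (-1.60, adjusted p = 0.0689), and the sign turned in the wide model (0.21, adjusted p = 0.88). The chondrocyte-like call was lost without the chondrocyte-like cells of replicate 1 (1.56, adjusted p = 0.112), the P-SSC-like cells of replicate 2 (1.71, adjusted p = 0.0524), or the osteoblast-like cells of replicate 2 (1.78, adjusted p = 0.0522), and was kept in the wide model (3.15, adjusted p = 5.19e-06).

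The Msmp cluster, found in replicate 2 only and led by Msmp, Cytl1, and Prg4 (which encodes lubricin, the lubricant of joint surfaces), had 1157 Thbs1 CPM (95% interval 1082-1235, from 900 UMIs in 65 of 75 cells). Tenocyte-like cells of replicate 2 had 359.9 CPM (322-402). Thbs1 was the single member with high levels outside the stroma. Monocyte/macrophage-like cells had 456 and 1548 CPM, and neutrophil-like cells had 187 and 449.7 CPM. B cell-like cells had 1.21 and 1.07 CPM. The P-SSC-like cells of replicate 1, whose Thbs1 level was above that of replicate 2, also held the 17919.6 CPM of neutrophil markers given above. The osteoblast-like cells of replicate 1, with 5027 CPM of these markers, likewise had more Thbs1 than those of replicate 2. So did the chondrocyte-like cells (651 against 339.7 CPM), which held 451 CPM of these markers in replicate 1. In that library the Thbs1 level was 187 CPM in neutrophil-like, 186 CPM in P-SSC-like, and 242 CPM in osteoblast-like cells. The part of neutrophil RNA in these levels was not tested.

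Thbs2 (ENSMUSG00000023885, chr17:14665500-14694235, - strand) was highest in tenocyte-like cells, with 405 CPM (11 UMIs in 2 cells) and 346 CPM (95% interval 309-387, from 309 UMIs in 68.8% of 109 cells). P-SSC-like cells had 76.0 and 118 CPM, osteoblast-like cells had 40.5 and 36.9 CPM, and the level was 4.40 and 9.64 CPM in chondrocyte-like cells. The 3 named classes did not overlap. P-SSC-like cells were higher by 2.09 (SE 0.38, adjusted p = 0.00368), and chondrocyte-like cells were lower (-2.86, SE 0.46, adjusted p = 0.00267). Osteoblast-like cells exceeded chondrocyte-like cells by 2.42 (SE 0.49, adjusted p = 0.00983), and P-SSC-like cells exceeded osteoblast-like cells by 0.88 (SE 0.44, adjusted p = 0.224), which did not pass although the sums do not overlap. Without the P-SSC-like cells of replicate 2 the P-SSC-like call was lost (1.45, adjusted p = 0.115). It was also lost at resolutions of 0.4 (0.53, adjusted p = 0.803) and 1.2 (0.97, adjusted p = 0.33) and with the members among the variable genes (0.99, adjusted p = 0.379). Tenocyte-like cells had joined the contrast at both resolutions, and Lepr+ stromal-like cells at 0.4 and in the last setting. The Mmp9 cluster had 35.1 and 140.3 CPM and differed from the mean of the others by 1.38 (SE 0.43, adjusted p = 0.0765).

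Thbs3 (ENSMUSG00000028047, chr3:89215180-89226837, + strand) was high in chondrocyte-like and P-SSC-like cells. Chondrocyte-like cells had 288 CPM (262 UMIs) and 194 CPM (706 UMIs), P-SSC-like cells had 194 CPM (51 UMIs) and 162 CPM (440 UMIs), and osteoblast-like cells had 6.29 and 12.5 CPM. Chondrocyte-like cells were higher by 2.70 (SE 0.34, adjusted p = 0.000675), a call that held in all 23 alternatives. P-SSC-like cells were higher by 1.42 (SE 0.34, adjusted p = 0.0155), and osteoblast-like cells were lower (-4.12, SE 0.44, adjusted p = 0.000388). Chondrocyte-like and P-SSC-like cells differed by 0.86 (SE 0.40, adjusted p = 0.162), and P-SSC-like cells exceeded osteoblast-like cells by 3.69 (SE 0.45, adjusted p = 0.000638).

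The P-SSC-like call for Thbs3 was lost without either P-SSC-like sum (1.42, adjusted p = 0.0713 without replicate 1, and 1.34, adjusted p = 0.11 without replicate 2) and without the chondrocyte-like cells of replicate 2 (1.25, adjusted p = 0.0564). It was also lost at resolutions of 0.4 (1.495, adjusted p = 0.301) and 1.2 (1.17, adjusted p = 0.275), where tenocyte-like cells had joined the contrast. In the wide model it passed (2.60, adjusted p = 0.00155). The osteoblast-like call was lost in the wide model (-1.63, adjusted p = 0.167). Tenocyte-like cells had 73.7 CPM (2 UMIs) and 166 CPM (148 UMIs). The Tcim cluster had 10.4 and 4.41 CPM and was lower (-3.01, SE 0.85, adjusted p = 0.0225). This call was lost in 4 of 33 alternatives, among them the fits without either of its sums.

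Thbs4 (ENSMUSG00000021702, chr13:92751590-92794818, - strand) was highest in tenocyte-like cells. Tenocyte-like cells had 3131 CPM (95% interval 2501-3872, from 85 UMIs in 2 cells) and 2251 CPM (2154-2352, from 2008 UMIs in 83 of 109 cells). The Msmp cluster had 425 CPM (331 UMIs), and P-SSC-like cells had 346 CPM (91 UMIs) and 314 CPM (851 UMIs). Osteoblast-like cells had 2.36 and 1.69 CPM, and chondrocyte-like cells had 0 UMIs, which allows up to 3.30 CPM, and 0.826 CPM. P-SSC-like cells were higher by 7.62 (SE 0.53, adjusted p = 4.65e-06), a call that held in all 23 alternatives, and exceeded osteoblast-like cells by 6.79 (SE 0.67, adjusted p = 0.000112).

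Within P-SSC-like cells Thbs4 was not evenly spread, since 40.0% and 29.8% of the cells had a UMI, against 80.0% and 61.8% for Ccn3. The osteoblast-like call (-2.57, SE 0.74, adjusted p = 0.0388) was lost when either P-SSC-like sum, either osteoblast-like sum, or the chondrocyte-like sum of replicate 2 was left out (-1.01 without the last, adjusted p 0.0682 to 0.964), and in the wide model (-0.72, adjusted p = 1.00). The higher call in Lepr+ stromal-like cells (4.34, SE 1.16, adjusted p = 0.0156) rested on 11 UMIs in 1 of 9 cells of replicate 2, while 63 cells of replicate 1 held 0 UMIs, which allows up to 6.67 CPM. Without that sum the fitted value was -4.45.

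The CCN proteins are small, cysteine-rich, secreted proteins with several binding domains. Ccn1 and Ccn2 are rapidly induced by serum, TGF-β, and YAP/TAZ, the transcriptional coactivators that respond to cell stretch. Ccn3 is often found where Ccn2 is not, and Ccn5 lacks the last domain of the family.

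Ccn1 (ENSMUSG00000028195, chr3:145646976-145649981, - strand) had 1728 CPM (1571 UMIs) and 1461 CPM (5302 UMIs) in chondrocyte-like cells. The Tcim cluster had 1006 and 1208 CPM, and osteoblast-like cells had 627 and 805 CPM. P-SSC-like cells had 53.2 CPM (14 UMIs) and 125 CPM (340 UMIs), and the Col10a1 cluster had 2.04 CPM (1 UMI) and 28.2 CPM (16 UMIs). The 6 sums of the first 3 groups lay above those of all other groups tested. Chondrocyte-like cells were higher by 2.74 (SE 0.48, adjusted p = 0.00238), a call that held in all 23 alternatives, and the P-SSC-like contrast was negative (-3.92, SE 0.62, adjusted p = 0.000892). The P-SSC-like call was lost in 3 of 23 alternatives, with an adjusted p of up to 0.199. These were resolutions of 0.4 and 1.2, where tenocyte-like cells joined the contrast, and skeletal muscle-like cells in the contrast. Its value ranged from -5.00 to -1.32 over the alternatives.

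Chondrocyte-like and osteoblast-like cells differed by 1.05 in Ccn1 (SE 0.58, adjusted p = 0.312), and osteoblast-like cells exceeded P-SSC-like cells by 3.39 (SE 0.63, adjusted p = 0.00333). In the wide model the Tcim cluster was higher by 1.81 (SE 0.44, adjusted p = 0.00877). This call was lost in 2 of 33 alternatives, among them the fit without its sum of replicate 2 (1.59). The Col10a1 cluster was lower (-3.87, SE 0.72, adjusted p = 0.000835) in all 33 alternatives. Osteoblast-like cells did not pass among the named classes (1.17, SE 0.48, adjusted p = 0.158) and passed in the wide model (1.90, adjusted p = 0.00607).

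Ccn2 (ENSMUSG00000019997, chr10:24595442-24598683, + strand) encodes connective tissue growth factor. The Tcim cluster had 2688 CPM (95% interval 2526-2857, from 1034 UMIs) and 3585 CPM (3476-3697, from 4066 UMIs), with a UMI in all 17 and all 47 of its cells. Chondrocyte-like cells had 376 CPM (342 UMIs) and 2127 CPM (7722 UMIs), so the libraries stood far apart. P-SSC-like cells had 1087 CPM (286 UMIs in 7 of 20 cells) and 362 CPM (983 UMIs in 41.4% of 285 cells). The Col10a1 cluster had 761 and 903 CPM, and osteoblast-like cells had 43.3 and 93.1 CPM. In B cell-like cells, 0.299% and 1.42% had a Ccn2 UMI.

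Ccn2 was higher in the Tcim cluster by 2.22 (SE 0.50, adjusted p = 0.00577). This call was lost in 2 of 33 alternatives, among them the fit without its sum of replicate 2 (1.92). It was higher in chondrocyte-like cells by 2.71 (SE 0.66, adjusted p = 0.0159) and lower in osteoblast-like cells (-3.45, SE 0.82, adjusted p = 0.019). The chondrocyte-like call was lost at resolutions of 0.4 and 1.2, where tenocyte-like cells joined the contrast, and the osteoblast-like call at 0.4. The chondrocyte-like value fell to 0.96 (adjusted p = 0.47) without the chondrocyte-like cells of replicate 2 and to 1.43 (adjusted p = 0.0771) in the wide model, and was 2.49 (adjusted p = 0.0664) without the P-SSC-like cells of replicate 2 and 2.49 (adjusted p = 0.0545) without the osteoblast-like cells of replicate 1. The osteoblast-like call was lost without either osteoblast-like sum (adjusted p = 0.171 and 0.0742) and without the P-SSC-like cells of replicate 1 (adjusted p = 0.055), and passed in the wide model (-3.28, adjusted p = 0.00829). P-SSC-like cells did not pass (0.74, SE 0.67, adjusted p = 0.481) and exceeded osteoblast-like cells by 2.79 (SE 0.84, adjusted p = 0.041).

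The higher Ccn2 call in the Col10a1 cluster (1.55, SE 0.53, adjusted p = 0.038) was lost in 12 of 33 alternatives, and the scaling was among them. That cluster had the lowest TMM factors, 0.438 and 0.632, and without TMM scaling the value was 0.40 (adjusted p = 0.622). The call was also lost without either of its own sums (1.40, adjusted p = 0.244, and 1.61, adjusted p = 0.155). Neighbours in the order of Ccn2 in the wide model did not pass the threshold, with 0.70 (SE 0.79, adjusted p = 0.587) between the Tcim cluster and chondrocyte-like cells and 2.15 (SE 0.82, adjusted p = 0.249) between the Mmp9 cluster and osteoblast-like cells, whose sums do not overlap.

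Ccn3 (ENSMUSG00000037362, chr15:54745702-54754039, + strand) was highest in P-SSC-like cells. They had 763.7 CPM (95% interval 662-877, from 201 UMIs) and 371 CPM (349-395, from 1007 UMIs), with a UMI in 80.0% and 61.8% of the cells. Tenocyte-like cells had 479 CPM (13 UMIs in 1 of 2 cells) and 182 CPM (162 UMIs). The P-SSC-like cluster led by Mfap4, described below, had less than tenocyte-like cells in replicate 2. It had 123 CPM there, with a UMI in 33.0% of 106 cells, against 484 CPM in the cluster led by Pi16. Osteoblast-like cells had 0 UMIs, which allows up to 1.18 CPM, and 2.03 CPM, chondrocyte-like cells had 1.10 CPM in both, and Lepr+ stromal-like cells had 0 UMIs in both, which allows up to 6.67 and 78.4 CPM. In B cell-like cells, 0.0374% had a Ccn3 UMI in replicate 1 and replicate 2 held 0 UMIs, which allows up to 0.356 CPM.

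Ccn3 was higher in P-SSC-like cells by 8.40 (SE 0.59, adjusted p = 1.42e-05) among the named classes and by 8.02 (SE 0.55, adjusted p = 6.24e-09) in the wide model. It was the largest fitted difference of a member in P-SSC-like cells, and the call held in all 23 alternatives. The Col10a1 cluster came next in the order of the groups tested and was 4.14 lower on the log2 scale (P-SSC-like minus Col10a1, SE 0.92, adjusted p = 0.00397). Its own higher call (3.28, SE 0.80, adjusted p = 0.0058) rested on 16 UMIs in 3 of 74 cells of replicate 2, and the value was 0.74 (adjusted p = 0.798) without that sum and 0.24 (adjusted p = 0.588) without cells that carried a reporter UMI. EGFP was among the leading genes of this cluster. The lower calls of Ccn3 near 0 were lost without 1 sum, in chondrocyte-like cells (-4.24, SE 0.82, adjusted p = 0.00545) without replicate 2 of the osteoblast-like cells (-2.25, adjusted p = 0.946) or of the chondrocyte-like cells (adjusted p = 0.0978), and in osteoblast-like cells (-4.16, SE 0.80, adjusted p = 0.00713) without the chondrocyte-like cells of replicate 2 (adjusted p = 0.171).

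Ccn5 (ENSMUSG00000027656, chr2:163820861-163833146, + strand) was highest in Lepr+ stromal-like cells, with 287 CPM (129 UMIs) and 287 CPM (11 UMIs). The Tcim cluster had 151 and 108 CPM, the Mmp9 cluster had 135.5 and 117 CPM, P-SSC-like cells had 15.2 CPM (4 UMIs) and 70.1 CPM (190 UMIs), and osteoblast-like cells had 3.15 and 1.35 CPM. The Lepr+ stromal-like sums lay above all others. In the wide model Ccn5 was higher in Lepr+ stromal-like cells by 2.71 (SE 0.49, adjusted p = 0.000858), in the Mmp9 cluster by 2.00 (SE 0.48, adjusted p = 0.0141), and in the Tcim cluster by 1.65 (SE 0.49, adjusted p = 0.0285). Lepr+ stromal-like cells and the Tcim cluster differed by 0.94 (SE 0.74, adjusted p = 0.469), which did not pass.

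Each of these Ccn5 calls was lost when a sum of its own group was left out, for Lepr+ stromal-like cells without replicate 1 (2.42, adjusted p = 0.142), for the Mmp9 cluster without replicate 1 or 2 (adjusted p = 0.0963 and 0.125), and for the Tcim cluster without replicate 1 or 2 (adjusted p = 0.206 and 0.143). Over all alternatives, the Tcim call did not pass in 3 of 33. In P-SSC-like cells Ccn5 was higher than in osteoblast-like and chondrocyte-like cells, by 3.41 (SE 0.66, adjusted p = 0.00274). That call was lost against the groups of the wide model (0.32, adjusted p = 0.808) and without the P-SSC-like cells of replicate 2 (1.45, adjusted p = 0.461). Osteoblast-like cells did not pass (-2.54, SE 0.81, adjusted p = 0.0639), but passed as lower in 10 of 23 alternatives, among them the wide model (-4.15, adjusted p = 0.00136), the members among the variable genes (-4.21, adjusted p = 0.00469), and the fits without replicate 1 of the P-SSC-like cells (-2.86, adjusted p = 0.0373) or of the chondrocyte-like cells (-2.81, adjusted p = 0.0419). In the wide model and with the members among the variable genes, Lepr+ stromal-like cells were in the contrast.

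Clusters inside a class differed in the members that they carried. They were drawn from the same cells, so their values are a description with no test. P-SSC-like cells comprised a cluster led by Pi16 and Mfap5 (17 and 179 cells) and a cluster led by Mfap4 and Eln (3 and 106 cells). In replicate 2, the Pi16 cluster had 529 Postn CPM against 273 in the Mfap4 cluster, 484 Ccn3 CPM against 123, and 416 Ccn2 CPM against 245. Thbs4 ran the other way there, with 254 CPM in the Pi16 cluster and 446 CPM in the Mfap4 cluster, but not in replicate 1, with 380.4 and 135 CPM. The Mfap4 cluster had only 3 cells in replicate 1 (Postn 6 UMIs, Ccn3 1 UMI, Thbs4 5 UMIs).

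Osteoblast-like cells comprised a cluster of 65 and 131 cells and a cluster of 28 and 37 cells led by Gal, Bglap, and Col1a2. The leading genes of the larger cluster were Bglap3 and Ifitm5 but also the neutrophil genes S100a8, S100a9, and Camp. Ccn1 stood out, with 1490 and 1643 CPM in the Gal cluster against 121 and 311 CPM in the larger cluster. Ccn2 was likewise higher in the Gal cluster (66.0 and 170.5 CPM against 30.0 and 47.4). Postn was lower there (12.8 and 23.7 CPM against 41.8 and 121), as was Tnc (64.9 and 101 CPM against 145 and 153).

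**Figure D4:**
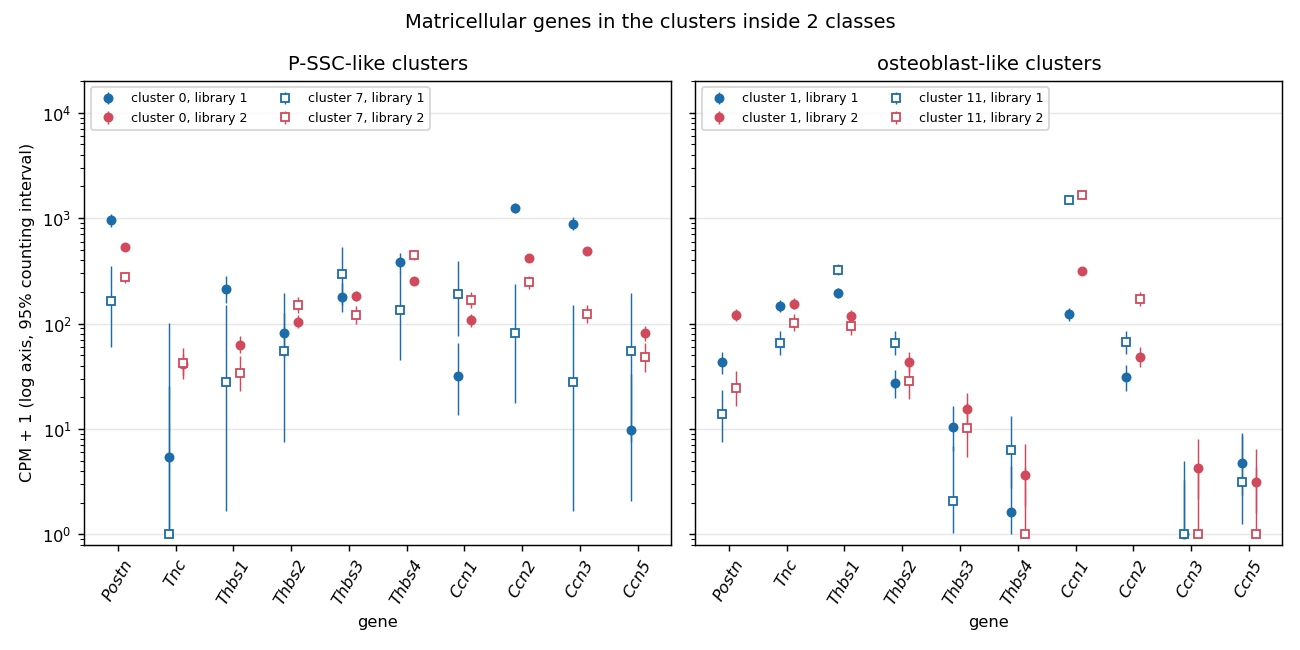
Level of the 10 genes in CPM + 1, on a log axis with exact Poisson 95% intervals, in the clusters within P-SSC-like cells (left, cluster 0 led by Pi16 and cluster 7 by Mfap4) and osteoblast-like cells (right, cluster 1 and cluster 11, the latter led by Gal). Ccn1 separates the osteoblast-like clusters (1490 and 1643 CPM against 121 and 311), and Ccn3 and Thbs4 run in opposite directions between the P-SSC-like clusters of library 2.

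Ccn1 moved with the early response genes, which collagenase treatment of tissue is known to induce. The summed level of the 14 genes of this list, among them Fos, Jun, and Egr1, was 14644 and 20661 CPM in the Tcim cluster, 12777 and 14914 CPM in chondrocyte-like cells, and 6734 and 7106 CPM in osteoblast-like cells. It was 1319 and 3522 CPM in P-SSC-like cells and 81.6 and 432 CPM in the Col10a1 cluster. Among the named classes, 10 of the 14 were higher and 0 lower in chondrocyte-like cells, against 8.27% and 8.97% over all genes. In P-SSC-like cells 0 were higher and 11 lower, against 15% and 8.08%. In the wide model, 13 were higher in the Tcim cluster, where 10.5% of all genes were. In the Col10a1 cluster 12 were lower, where 11.2% were. P-SSC-like cells had 0 higher and 1 lower in the wide model, where 1149 and 274 of all 9421 genes were. The Gm26917 cluster, with 7249 and 6761 CPM, had about the early response sum of osteoblast-like cells but less Ccn1, at 196 and 328 CPM. Ccn2 was at 761 and 903 CPM in the Col10a1 cluster and at 43.3 and 93.1 CPM in osteoblast-like cells. The part of the tissue digestion in the levels of Ccn1, Ccn2, and Thbs1 was not tested.

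**Figure D5:**
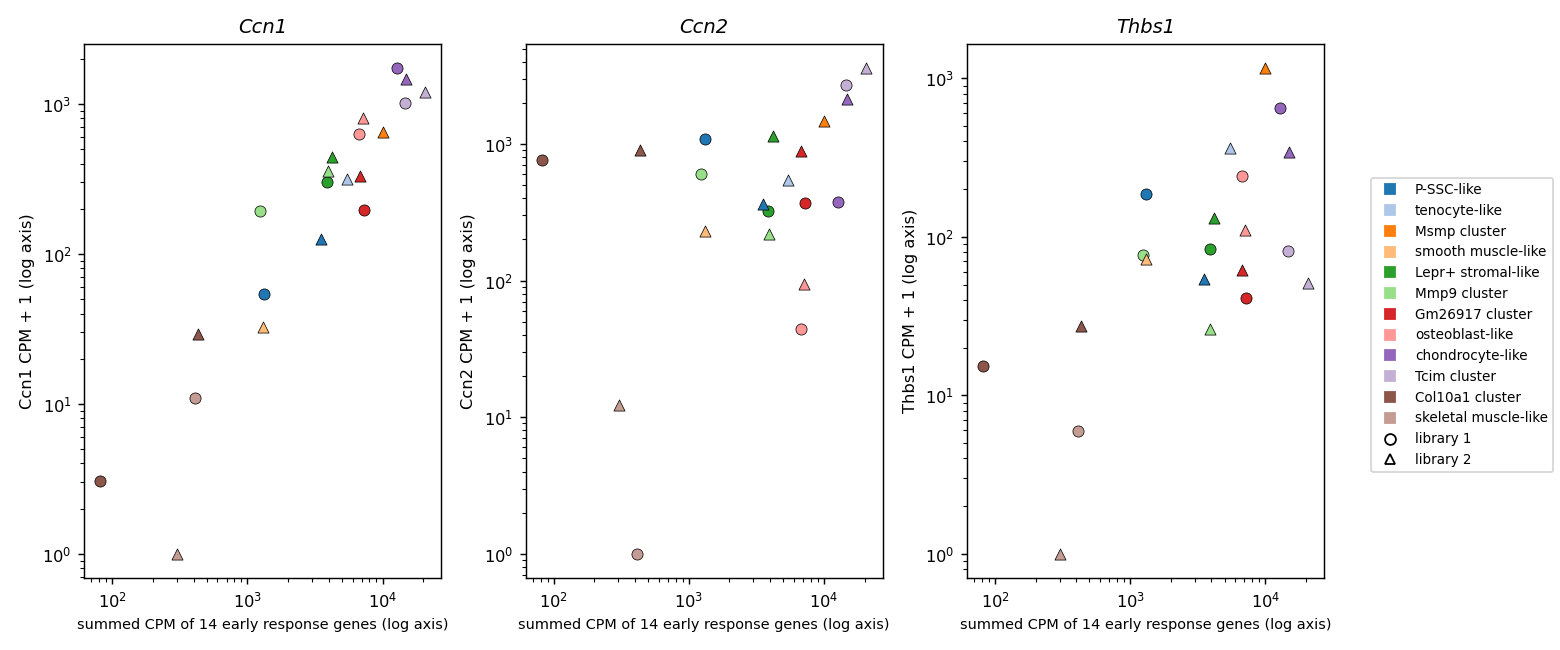
Ccn1, Ccn2, and Thbs1 in CPM + 1 against the summed CPM of 14 early response genes, both on log axes, with 1 point per group and library of at least 5 cells. Ccn1 had 2.04 CPM at 81.6 summed CPM in the Col10a1 cluster and 1728 CPM at 12777 in chondrocyte-like cells, both of library 1. It had 0 UMIs at 303 summed CPM in skeletal muscle-like cells and 1208 CPM at 20661 in the Tcim cluster, both of library 2. Ccn2 and Thbs1 are more scattered.

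Outside the stroma, the members other than Thbs1 were near 0. Their highest level in any hematopoietic group was 10.6 CPM, for Ccn1 in 59 cells of a cluster led by Ctsg in replicate 2. In B cell-like cells, the largest group with 2672 and 1336 cells, no member exceeded 2.97 CPM or was found in more than 1.42% of cells.

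Lists of related genes are given as a description. Unlike the members, these genes and those of the early response list were not kept out of the clustering, so their values partly made the groups, and Tnxb and Fbln1 are among the leading genes of P-SSC-like clusters. Of 24 receptor and coreceptor genes, 18 were tested among the named classes, and P-SSC-like cells had 11 of them higher and 0 lower (15% and 8.08% over all genes), with a median log2 fold change of 2.13 against 0.02 over all genes. They included the integrin subunits Itga9 (5.30) and Itgb3 (4.78), whose integrins bind several of these proteins. In chondrocyte-like cells 2 were higher, among them the syndecan Sdc4 (2.93), and 6 were lower, among them Itgb8 (-5.60), against 8.27% and 8.97% over all genes. In osteoblast-like cells 0 were higher and 3 lower, among them Itga6 (-6.42), against 6.04% and 5.58%. At an unadjusted p under 0.05, edgeR called 0 receptor genes up in osteoblast-like cells and 0 down in the P-SSC-like contrast.

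Of 7 further genes of the same families, 6 were tested. Tnxb, which encodes tenascin-X, was higher in P-SSC-like cells (11.26), Comp, the fifth thrombospondin, was higher in chondrocyte-like cells (6.16), as was Ccn6 (7.26), and Tnn (5.09), which encodes tenascin-W of bone, and Ccn4 (4.52) were higher in osteoblast-like cells. P-SSC-like cells had 2 of the 6 higher and 3 lower, chondrocyte-like cells 3 and 1, and osteoblast-like cells 2 and 2. Of 8 other matricellular genes, 7 were tested, and 4 rose and 1 fell in the P-SSC-like contrast, 1 and 2 in the chondrocyte-like contrast, and 1 and 3 in the osteoblast-like contrast. For both lists, the shares over all genes in these contrasts were 15% and 8.08%, 8.27% and 8.97%, and 6.04% and 5.58%. Sparcl1 was the largest rise in P-SSC-like cells (6.56), and Spp1, which encodes osteopontin, was lower there (-7.92) and higher in osteoblast-like cells (5.76).

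Of 13 genes known to follow YAP/TAZ or TGF-β, as Ccn1 and Ccn2 do, 11 were tested among the named classes, and 4 rose and 1 fell in the P-SSC-like contrast, 4 and 2 in the chondrocyte-like contrast, and 0 and 3 in the osteoblast-like contrast, where 2 were higher at an unadjusted p under 0.05 by edgeR. The shares over all genes were 15% and 8.08%, 8.27% and 8.97%, and 6.04% and 5.58% in these contrasts. Of the 13 genes, 12 were tested in the wide model, and 4 were higher and 0 lower both in the Tcim cluster (10.5% and 5.63% over all genes) and in chondrocyte-like cells (10.5% and 5.25%). At an unadjusted p under 0.05, edgeR gave 0 lower in the former and 3 in the latter. The receptor kinase Axl was higher in P-SSC-like cells (7.00) and lower in chondrocyte-like cells (-4.38).

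The genes outside the members whose log2(CPM + 10) ran closest to a member over the 18 sums of the wide model are given as a description. These sums share 2 libraries, and some come from the same clustering. Postn ran closest to Ptn, Lrrc17, and Epha3 (Pearson's r = 0.901 to 0.898), and Tnc to Adamts9, Sept4, and S1pr1 (0.944 to 0.940). Thbs4 ran closest to Tnxb (0.968), Itgbl1, and Htra4, and Ccn3 to Gpc3 (0.967), Cadm3, and Tmeff2. Ccn1 ran closest to Fosb (0.979) and Egr1 (0.961), both of the early response list, and Mogs. Ccn2 ran closest to Tpbg (0.891), Ctnna1, and Emp1, and Ccn5 to Tmem86a (0.902), Atn1, and Rin2. For Thbs1 they were Pid1 (0.903), Dnajc25, and Scd2, for Thbs2 Mxra8 (0.889), Cyba, and Frmd6, and for Thbs3 Vit (0.946), Prelp, and Itm2a.

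Over the 8 sums of the named classes the nearest genes were others, as Qpct for Postn (0.999), Hic1 for Ccn3 (0.9997), Islr2 for Thbs4 (0.997), and again Fosb for Ccn1 (0.992). Among the members themselves, Thbs4 and Ccn3 ran together over the 8 sums (0.991) and less closely over the 18 (0.744), Thbs1 and Ccn1 had 0.893 and 0.768, and Ccn1 and Ccn2 had 0.571 and 0.446. With so few sums and 2 libraries, these values order the genes and test nothing.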

How the data were processed

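The authors deposited raw UMI counts per gene and barcode of 2 10x Chromium libraries. The submitters' processing notes name Cell Ranger 6.1.2 and mm10, while the methods of the study name only a human genome, and the counts are of mouse genes. Barcodes with at least 500 genes, at least 500 UMIs, and at most 10% mitochondrial UMIs were kept. Cells were integrated with Seurat 5.3.0 (CCA, 3000 variable genes, 30 anchor dimensions, 15 components, Louvain resolution 0.8), and stromal cells were clustered again. Neither the variable genes nor the marker lists held any of the 10 genes. A cluster took a name from 21 marker lists if it had at least 3 markers with a log2 fold change of at least 1, with 10 CPM added, in at least 20% of its cells. The name was refused if another list had more genes among the 10 leading genes of the cluster. This left unnamed the Col10a1 cluster, with 5 of 12 chondrocyte-like markers, and the Igkc cluster, with 8 of 14 P-SSC-like markers. The naming rule and the limit that separated stromal from hematopoietic clusters were set after the clusters were seen.

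Doublets were scored with Scrublet, which marked 146 cells of replicate 1 and 1 of replicate 2 and so did not work in the latter. They were kept, and their removal was an alternative.

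Counts were summed per group and library and tested with edgeR 4.0.16 in R 4.3.3 (filterByExpr, TMM, quasi-likelihood F-test, Benjamini-Hochberg threshold 0.05). A class needed at least 10 cells in each library, and the wide model, chosen after the clusters were seen, at least 5. In the main clustering, Lepr+ stromal-like cells therefore entered only the wide model, and no cluster took the name osteogenic progenitor-like. Further classes entered the model of named classes in some alternatives. Lepr+ stromal-like cells did so at resolution 0.4 and with the members among the variable genes, and tenocyte-like cells at resolutions of 0.4 and 1.2. DESeq2 1.42.0 and a fit with the library as a block were among the alternatives. Sums with the same replicate number come from the same library, and the correlation of their deviations was 0.0886 to 0.342. The fits were also run on simulated counts with changes placed in P-SSC-like cells only. That simulation held no library effect and covered neither the other contrasts nor genes near 0 in some groups. The members and the gene lists were chosen with earlier results of these data known. All 10 members are named, with the 3 genes most correlated with each and, from the related lists, the largest changes past the threshold. A gene among these is not reported here. A count of 0 allows up to 3 UMIs. UMI intervals cover counting error only.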

Additional observations from a re-analysis of the deposited data

Results flagged for a closer look

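Reporter transcripts were found although the labels give WT mice, and they are no members of the gene set. EGFP had 6833 UMIs in the stromal cells of replicate 2, and 0 in those of replicate 1. The reporter tdTomato had 315 UMIs in the stromal cells of replicate 1 and 4064 in those of replicate 2, at 52.6 and 282 CPM, against 13.6 and 34.5 CPM in the hematopoietic cells of the same libraries. They stand out as signal in features outside the members. Their source was not tested.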

How the results depend on the processing

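Among the named classes, the calls of Postn, Thbs4, and Ccn3 in P-SSC-like cells and of Thbs3 and Ccn1 in chondrocyte-like cells held in all 23 alternatives. The library as a block changed no call, and P-SSC-like cells again had 6 members higher and 2 lower. With 2 libraries and few cells in some sums, other calls depend on single sums. No cause was tested for any change below. Shares over all genes were taken only for the main fits of the 2 models, so counts in the other settings stand without them.

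Leaving out 1 sum gave 3 to 6 higher and 1 to 2 lower members in P-SSC-like cells, 2 to 4 and 4 to 5 in chondrocyte-like cells, and 1 to 1 and 2 to 5 in osteoblast-like cells. Values that changed sign were those of Tnc (-3.19 to 2.67) and Ccn2 (-0.0504 to 1.58) in P-SSC-like cells, Thbs1 (-0.74 to 0.37) in osteoblast-like cells, Ccn5 (-3.03 to 0.12) in chondrocyte-like cells, and Thbs4 (-4.45 to 5.76) in Lepr+ stromal-like cells.

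At resolution 0.4 the counts were 3 and 0, 2 and 3, and 0 and 0 in the same order, with Postn at -0.0272, Thbs1 at 0.21, and Thbs2 at -0.53 in osteoblast-like cells and Tnc at 0.0743 in the Tcim cluster. At resolution 1.2, 0 members were lower in P-SSC-like and 2 higher in chondrocyte-like cells, with Thbs1 at 0.0094 and Thbs2 at -0.11 in osteoblast-like cells. With the members among the variable genes, 1 was lower in P-SSC-like and 0 higher in osteoblast-like cells, with Postn at -0.0538, Thbs1 at 0.73, and Thbs2 at -0.11 in the latter. Tnc in P-SSC-like cells was 0.19 without integration, 0.17 without doublets, 0.14 at most 5% mitochondrial UMIs, 0.0013 without bias adjustment, and 0.32 without TMM scaling, where 1 member was lower. At 5%, Thbs1 was 0.12 in osteoblast-like cells and Postn 1.41 in the Tcim cluster. Without integration Thbs4 was -4.90 in Lepr+ stromal-like cells. DESeq2 called 0 members higher in osteoblast-like cells, and 2 were higher there without cells with reporter UMIs.

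With skeletal muscle-like cells in the contrast, 0 members were lower in P-SSC-like cells, 1 was lower in chondrocyte-like cells, and 5 were higher and 0 lower in osteoblast-like cells. Tnc was then 2.71 and Thbs1 0.39 in P-SSC-like cells, Thbs2 0.33 in chondrocyte-like cells, and Thbs1 2.00 in osteoblast-like cells. In the wide model, added after seeing the data like the reporter and TMM settings, 1 member was lower in P-SSC-like cells, 3 were lower in chondrocyte-like cells, and 3 were higher and 2 lower in osteoblast-like cells. Of all 9421 genes in that model, 274 were lower in P-SSC-like cells and 495 in chondrocyte-like cells. In osteoblast-like cells 788 of them were higher and 275 lower. In the wide model Thbs1 was 0.21 and Ccn2 -0.0748 in P-SSC-like cells. The members higher in osteoblast-like cells were Thbs1 (1.57, adjusted p = 0.0135, edgeR), Postn (2.79, adjusted p = 0.00201), and Ccn1. Those lower there were Ccn2 and Ccn5. The members lower in chondrocyte-like cells were Tnc, Thbs2, and Ccn5 (-2.95, adjusted p = 0.00774).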
